A study of Mus musculus with 2 samples.

Results

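The genes described here make cholesterol and fatty acids. They comprise 31 named genes out of the 52636 in each table, taken by gene symbol. A sterol branch of 25 genes holds 19 enzymes and 6 regulators or carriers. A fatty acid branch holds 6 genes: Acly, Acaca, Fasn, Elovl6, Scd1 and Scd2. The genes lie on 15 chromosomes, and those with the highest ratios are Idi1 (ENSMUSG00000058258, chr13:8.8855e+06-8.89245e+06, plus strand), Hsd17b7 (ENSMUSG00000026675, chr1:1.6995e+08-1.69969e+08, minus strand) and Scd1 (ENSMUSG00000037071, chr19:4.43945e+07-4.44079e+07, minus strand), in GENCODE M21 positions on GRCm38. All 31 were found in both tables, each with 1 entry, and all 31 passed the minimum of 50 counts in the higher library. RNA-seq was done on 1 library from miR-29a KO mice, which lack the microRNA miR-29a, and 1 library from WT mice. Both groups were C57BL/6, 8 weeks old and labelled as retina, and each library pooled the retinas of 3 mice. The sources used here do not give how the KO allele was made, whether it is limited to a cell type, or the sex of the mice.

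Cholesterol is built from acetyl-CoA through mevalonate and the isoprenoid diphosphates to squalene, which is then cyclised and trimmed. Fatty acid synthesis starts from the same acetyl-CoA. Both routes are controlled by the SREBP transcription factors, which are held in the endoplasmic reticulum by SCAP and the INSIG proteins and released to the nucleus when membrane sterol is low. SREBP2 is best known for the sterol genes and SREBP1 for the fatty acid genes. In the retina, cholesterol is made locally and is also taken up from blood, and photoreceptor outer segments are rich in membrane lipid.

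With 1 library per genotype there was no replicate check and no test. All differences compare these 2 libraries. Counts were scaled by the library total to CPM, the count of a gene per 1000000 counts. The total was 24876925 in the KO library and 26805902 in the WT library. A log2 ratio is KO over WT after 0.5 was added to each CPM. A fold is a plain ratio of CPM, followed in parentheses by its 95% exact counting interval, which covers counting error only. A gene was called higher or lower at a 2-fold difference on the log2 ratio. The median log2 ratio of the 12382 genes past the minimum was 0.06. Mir29a itself had 0 counts in both libraries, which checks neither label, because such libraries do not measure so short an RNA reliably.

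The marker content of the libraries touches every result below. The 10 photoreceptor markers examined summed to 10 counts in the KO library and 8 in the WT library, and Pde6a, Rcvrn, Gngt1 and Cnga1 were at 0 in both, while the 10 fibroblast markers summed to 17797 CPM in the KO library and 15525.5 CPM in the WT library. The defining markers of the labelled tissue were thus at or near 0. Of 10 macrophage markers, 9 passed the minimum and all 9 were 2-fold higher in the KO library, where 4.47% of all genes were. The macrophage list summed to 652 CPM in KO against 177 CPM in WT. The 7 adipocyte markers summed to 45.0 CPM in KO and 56.7 CPM in WT, with Lep at 0 in both. The 8 endothelial markers summed to 49.0 CPM in KO and 26.1 CPM in WT, of which Cdh5 held 23.2 and 6.53 CPM. These sums hide differences in direction. Past the minimum, 7 of 10 fibroblast, 6 of 7 endothelial and 1 of 5 adipocyte markers had a log2 ratio above 0, against 55.0% of all genes. Xist had 0 counts in KO and 4288 in WT, and the 4 Y-linked genes summed to 1092 counts in KO and 164 in WT. By these sex-linked transcripts the pools differed in sex make-up, which cannot be told apart from genotype here. In such bulk samples fewer cells of a type and less RNA per cell cannot be told apart. The part of these differences in the results on lipid genes was not tested.

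The promoters of these genes are where the SREBPs, together with the CCAAT-binding factor NF-Y and the GC-box factor SP1, are known to act. RefSeq windows (GRCm38.p6) running 250 bases before to 50 after the gene start were matched by symbol for 25 of the 31 genes, but not for Scd2, Sqle, Stard4, Scd1, Fdft1 or Fdps. A core of the sterol regulatory element, TCACNCCAC on either strand, was found in 1 of these 25, Hmgcs1, and in 1.44% of the 27025 symbols with a window. CCAAT or its complement ATTGG was found in 21 of 25 (84%), against 41.1% of all symbols. The GC box GGGCGG or its complement was likewise found in 21 of 25 (84%), against 38.2%. The E-box CACGTG was found in 5 of 25 (20%), against 8.09%. All 25 genes passed the minimum of 50 counts, while the 27025 symbols were not limited to such genes. The shares are thus not matched for expression, and no comparison with expressed genes alone was made. Of the 25 genes 20 had 1 window and the others more, and a match in any window of a gene was counted. Of the genes with a window, 19 of 21 in the sterol branch held CCAAT, and 2 of 4 in the fatty acid branch. A match is a description of letters, not a bound site. Only this core of the sterol element was searched, so a window without a match may still hold another form of it. The first window below is of Hmgcs1, the gene with a match to the sterol element core. Both genes that were 2-fold higher in the KO library follow (Idi1 and Hsd17b7, in a background of 4.47% of all genes). The others are a gene with a lower value there (Mvk) and the central enzyme of the fatty acid branch (Fasn). Capitals mark the sterol element core and each CCAAT or ATTGG, and in Fasn a pair of these overlaps.
Hmgcs1, chr13:119690101-119690400, plus strand: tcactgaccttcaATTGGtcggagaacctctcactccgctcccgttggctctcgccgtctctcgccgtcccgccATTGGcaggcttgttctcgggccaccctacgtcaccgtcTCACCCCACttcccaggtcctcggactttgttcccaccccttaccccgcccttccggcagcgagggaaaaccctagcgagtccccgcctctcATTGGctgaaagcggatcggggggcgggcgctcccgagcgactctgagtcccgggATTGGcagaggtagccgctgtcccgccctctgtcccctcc
Idi1, chr13:8885356-8885655, plus strand: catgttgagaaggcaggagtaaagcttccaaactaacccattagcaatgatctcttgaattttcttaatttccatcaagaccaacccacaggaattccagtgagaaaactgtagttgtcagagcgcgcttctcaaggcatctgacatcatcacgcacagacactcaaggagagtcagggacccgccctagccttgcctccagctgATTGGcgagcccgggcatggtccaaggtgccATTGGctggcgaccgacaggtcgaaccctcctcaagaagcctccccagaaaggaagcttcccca
Hsd17b7, chr1:169969156-169969455, minus strand: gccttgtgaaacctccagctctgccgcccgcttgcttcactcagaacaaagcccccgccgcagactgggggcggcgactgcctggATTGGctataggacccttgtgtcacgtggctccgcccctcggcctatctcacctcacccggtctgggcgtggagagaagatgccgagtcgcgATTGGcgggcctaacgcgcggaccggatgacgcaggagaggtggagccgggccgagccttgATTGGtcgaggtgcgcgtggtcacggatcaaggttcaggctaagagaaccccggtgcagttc
Mvk, chr5:114444019-114444318, plus strand: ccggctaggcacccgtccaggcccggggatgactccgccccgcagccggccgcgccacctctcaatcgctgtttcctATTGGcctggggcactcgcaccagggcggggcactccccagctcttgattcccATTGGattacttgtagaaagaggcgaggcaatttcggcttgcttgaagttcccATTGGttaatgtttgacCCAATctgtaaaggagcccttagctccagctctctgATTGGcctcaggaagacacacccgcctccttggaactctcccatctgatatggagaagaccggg
Fasn, chr11:120824498-120824797, minus strand: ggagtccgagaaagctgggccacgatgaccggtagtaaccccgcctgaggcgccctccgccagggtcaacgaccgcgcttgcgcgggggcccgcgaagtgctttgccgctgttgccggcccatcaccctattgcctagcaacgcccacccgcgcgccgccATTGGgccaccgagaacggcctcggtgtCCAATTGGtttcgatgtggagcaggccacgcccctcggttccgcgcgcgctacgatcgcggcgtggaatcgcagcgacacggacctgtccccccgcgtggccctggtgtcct
Hmgcs1 carried 4 CCAAT boxes and its match to the sterol element core starts at base 114 of the window. Mvk carried 5 CCAAT boxes, the most of the 25 genes, and Idi1 carried 2. CCAAT boxes were thus present both in genes with a higher value and in genes with a lower value in the KO library.

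The deleted microRNA pairs with target transcripts through its seed, bases 2 to 8, shown in capitals in its mature sequence (RefSeq, GRCm38, chr6:31062673-31062694, minus strand). The complementary heptamer TGGTGCT was found in the longest annotated 3' UTR of 5 of the 31 genes (16.1%), a share like the 16.1% of the 11585 protein-coding genes past the minimum. Each of the 5 had 1 heptamer, in capitals below within 25 bases of GENCODE M21 transcript (GRCm38), and none was followed by an A.
miR-29a-3p: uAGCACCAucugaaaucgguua
Hmgcs1, chr13:119707573-119707597, plus strand: gatgattttTGGTGCTgaacaatga
Fdft1, chr14:63146568-63146592, minus strand: tcagcagccTGGTGCTggctgggac
Cyp51, chr5:4082220-4082244, minus strand: ttgctggagTGGTGCTgcacacctg
Insig1, chr5:28077190-28077214, plus strand: ggaggttgaTGGTGCTtaacagaga
Scd1, chr19:44397558-44397582, minus strand: gggtgagcaTGGTGCTcagtccctg
The log2 ratios of these 5 genes were 0.59 for Hmgcs1, 0.14 for Fdft1, 0.68 for Cyp51, 0.63 for Insig1 and 0.97 for Scd1. Without the GC and length correction described further on, their median was 0.63, against 0.22 for the 26 genes without the heptamer. The largest values of the set, in Idi1 and Hsd17b7, belong to genes without it. The 5 genes also had longer 3' UTRs, with a median of 1842 bases against 936. Over all protein-coding genes past the minimum the medians were 0.14 with and 0.05 without the heptamer.

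Against all genes, the share of the set past 2-fold was near the background, and the shares past 1.5-fold and above 0 were higher than it. At 2-fold, 2 of 31 genes (6.45%) were higher in KO, Idi1 and Hsd17b7, where 4.47% of all 12382 genes past the minimum were higher, and 0 of 31 were lower, where 2.82% of all genes were. At 1.5-fold on the log2 ratio, 10 of 31 (32.3%) were higher, namely Idi1, Hsd17b7, Scd1, Sc5d, Msmo1, Cyp51, Acaca, Insig1, Sqle and Hmgcs1, where 13.3% of all genes were, and 0 were lower, where 8.88% of all genes were. A log2 ratio above 0 was found for 23 of 31 (74.2%), against 55.0% of all genes. Counting intervals lay wholly above 1 for 19 of 31 (61.3%), against 40.3%, and wholly below 1 for 8 of 31 (25.8%), against 31.2%. After the correction described further on, the share past 1.5-fold was near the background too.

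The first steps of the mevalonate route were split in direction. Acat2, the cytosolic thiolase that joins acetyl-CoA units, had 959 counts (38.5 CPM) in the KO library and 1129 (42.1 CPM) in the WT library. Hmgcs1, which adds the next acetyl unit to make HMG-CoA, had 1486 counts (59.7 CPM) in KO and 1058 (39.5 CPM) in WT, a fold of 1.51 (1.40 to 1.64). Neither reached 2-fold, and the value for Acat2 lay slightly below that of the WT library, at a fold of 0.915 (0.839 to 0.998). Reads of Acat2 are uncertain because 45.9% of the 50-base windows of its longest transcript also occur in its paralog Acat3, which had 11 counts in KO and 12 in WT. Some of these, 13.2% of all windows, also occur in Tcp1, which had 4393 counts in KO and 3352 in WT, more than Acat2.

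The 3 enzymes that turn mevalonate into isopentenyl diphosphate were all below their WT value. Mevalonate kinase, Mvk, had 1455 counts in KO and 1978 in WT, 1.26-fold lower in the KO library (1.18 to 1.35). Phosphomevalonate kinase, Pmvk, had 500 counts in KO and 782 in WT, 1.45-fold lower (1.30 to 1.63), the lowest log2 ratio of the 31 genes at -0.53. The decarboxylase Mvd had 1748 counts in KO and 2071 in WT, 1.10-fold lower (1.03 to 1.17). None of the 3 reached 2-fold, but each counting interval lay wholly below 1, as for 31.2% of all genes. After the correction for GC content and length described further on, the log2 ratio of Mvd was 0.20, while Mvk and Pmvk stayed below 0. Their transcripts are rich in G and C, at 56.3% for Mvk, 57.0% for Pmvk and 59.0% for Mvd, and a relation of the log2 ratio to GC content is described further on.

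The next enzyme, Idi1, stood at the other end of the range. This isomerase interconverts isopentenyl and dimethylallyl diphosphate, the units from which all isoprenoids are built. It had 415 counts (16.7 CPM) in the KO library and 137 (5.11 CPM) in the WT library, 3.26-fold higher (2.68 to 3.99), with a log2 ratio of 1.61. Idi1 has processed copies in the genome, and 4 of these share 1% or more of its windows. They had 9 counts in KO and 5 in WT together, and with them added the fold was 3.22 (2.65 to 3.92).

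Fdps, which makes farnesyl diphosphate, the branch point to sterols, dolichol and protein prenylation, could not be measured reliably. It had 69 counts (2.77 CPM) in KO and 54 (2.01 CPM) in WT, 1.38-fold higher with an interval that holds 1 (0.950 to 2.004). Its level per length was 0.671 FPKM (the authors' count per length and library size) in KO and 0.506 FPKM in WT, the lowest of the set in both libraries, although the same route holds Mvd at 38.5 FPKM in KO and 44.0 FPKM in WT. The processed pseudogene Gm3571, which shares 3.24% of the Fdps windows, had 310 counts in KO and 433 in WT, more than Fdps itself. Summed over Fdps and its 3 pseudogene entries, the count was 440 in KO and 596 in WT, 1.26-fold lower in KO (1.11 to 1.43), the opposite direction to Fdps alone. A same-strand annotated transcript, Gm43738, overlaps Fdps as well and had 0 counts in both libraries.

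**Figure D1:**
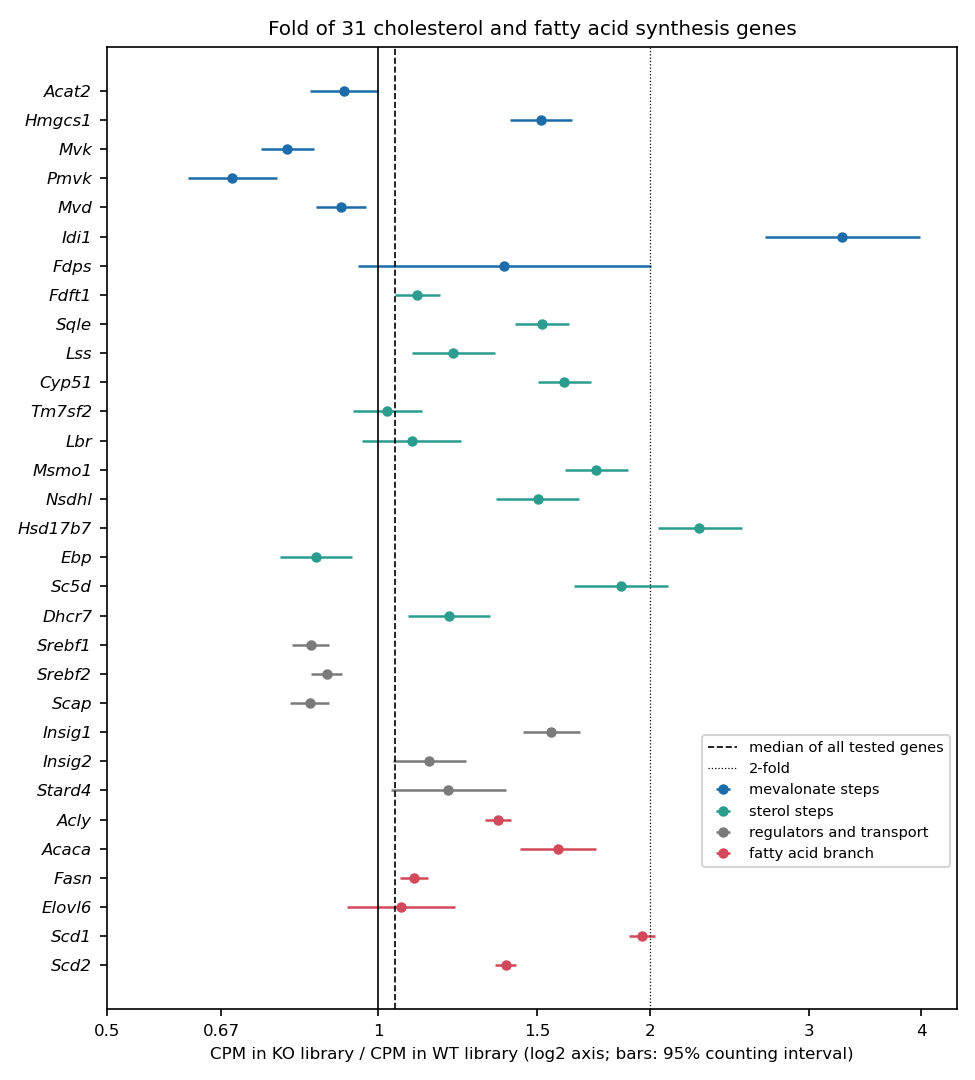
Fold of each of the 31 genes, given as CPM in the KO library over CPM in the WT library on a log2 axis, with bars for the 95% counting interval of 1 library per genotype. Idi1 (3.26) and Hsd17b7 (2.27) lie beyond the 2-fold line, Scd1 (1.96) touches it, and Mvk, Pmvk, Mvd, Ebp, Srebf1, Srebf2, Scap and Acat2 lie below 1, of which Mvd, Srebf1 and Scap came to lie above 0 in log2 ratio after the GC and length correction.

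From squalene onward most values were higher in the KO library. Of the 12 genes of the sterol steps, 11 (91.7%) had a log2 ratio above 0, against 55.0% of all genes, and 9 (75%) had a counting interval wholly above 1, against 40.3%. Their median log2 ratio was 0.42, against -0.13 for the 7 genes of the mevalonate steps, and after the GC and length correction 0.32 against 0.20, with 9 of the 12 genes above 0. Summed, the 12 genes held 14710 counts in KO and 11730 in WT, 1.35-fold higher (1.32 to 1.38), while the 7 mevalonate genes held 6632 in KO and 7209 in WT, a fold of 0.991 (0.959 to 1.03). The higher enzyme total of the KO library thus came from the steps after farnesyl diphosphate. The steps were grouped by pathway position and not by their values, but genes are not replicates and no test was made.

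Fdft1, the squalene synthase that commits farnesyl diphosphate to sterols, had 2417 counts in KO and 2357 in WT (1.10-fold, 1.04 to 1.17). Its exons overlap those of the strongly expressed protease gene Ctsb on the opposite strand, at 72509 counts in KO and 52154 in WT, and the library kit does not mark strand. Part of its reads can therefore not be assigned with certainty. Sqle, the squalene epoxidase that is a rate-limiting step of the route, had 2018 counts (81.1 CPM) in KO and 1432 (53.4 CPM) in WT, 1.52-fold higher (1.42 to 1.63). Lss, which closes the rings to lanosterol, had 743 counts in KO and 661 in WT (1.21-fold, 1.09 to 1.35). The fold was thus larger at the epoxidase than at the enzymes on either side of it, with intervals that do not overlap.

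The enzymes that remove methyl groups from lanosterol all had higher values in the KO library. Cyp51, the demethylase that acts first, had 2184 counts in KO and 1464 in WT, 1.61-fold higher (1.504 to 1.72). Msmo1, the methyl oxidase, had 1624 in KO and 1003 in WT, 1.74-fold higher (1.61 to 1.89). Nsdhl, the decarboxylating dehydrogenase, had 829 in KO and 595 in WT, 1.501-fold higher (1.35 to 1.67). Hsd17b7, the ketoreductase that completes each round, had 1068 counts (42.9 CPM) in KO and 507 (18.9 CPM) in WT, 2.27-fold higher (2.04 to 2.53), the second gene past 2-fold. All 4 enzymes of this stretch were at least 1.5-fold higher in CPM, and Hsd17b7 alone of them passed 2-fold. After the GC and length correction their log2 ratios were 0.48 for Cyp51, 0.52 for Msmo1, 0.33 for Nsdhl and 0.80 for Hsd17b7, so that none passed 2-fold and Hsd17b7 alone passed 1.5-fold. Nsdhl lies on the X chromosome, and the Xist and Y-linked counts given above differed between the libraries.

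The sterol reductases that act between these steps did not follow. Tm7sf2 and Lbr encode proteins with the same reductase activity, Lbr also being the lamin B receptor of the nuclear envelope. Tm7sf2 had 985 counts in KO and 1038 in WT (1.02-fold, 0.936 to 1.12), and Lbr had 494 in KO and 489 in WT (1.09-fold, 0.959 to 1.24). Both intervals hold 1. Per length, Tm7sf2 stood above Lbr in both libraries, at 11.6 against 4.24 FPKM in KO and 11.8 against 4.05 FPKM in WT. Annotated exons of Tm7sf2 overlap Vps51 on the same strand (1028 counts in KO and 1302 in WT), which leaves some doubt on its reads. Yet 0% of the 50-base windows of its longest transcript occur in another gene, while 19.9% of the Fdft1 windows occur in Ctsb.

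The last steps were split again. Ebp, the isomerase that moves the double bond of the ring, had 848 counts in KO and 1071 in WT, 1.17-fold lower in KO (1.07 to 1.28), and it is the other X-linked gene of the set. Sc5d, the desaturase, had 739 counts (29.7 CPM) in KO and 429 (16.0 CPM) in WT, 1.86-fold higher (1.65 to 2.10). Dhcr7, the reductase that completes cholesterol in one arm of the route, had 761 in KO and 684 in WT (1.199-fold, 1.08 to 1.33). By CPM of the library total, Ebp was the only one of the 12 genes of the sterol steps below its WT value. Tm7sf2 also lay below it by the authors' FPKM (log2 ratio -0.02), with median-of-ratios factors (-0.03) and after the GC and length correction (-0.02), and Lbr after that correction (-0.19).

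The regulators did not move as a block. Srebf2, which encodes SREBP2, had 4575 counts (184 CPM) in KO and 5627 (210 CPM) in WT, 1.14-fold lower (1.10 to 1.19). Srebf1 had 3215 in KO and 4118 in WT, 1.19-fold lower (1.13 to 1.25), and the escort protein gene Scap 2826 in KO and 3630 in WT, 1.19-fold lower (1.13 to 1.25). All 3 genes of the activating machinery thus lay slightly below their WT values, at log2 ratios of -0.19, -0.25 and -0.25. After the correction for GC content and length described below these were -0.02 for Srebf2, 0.04 for Srebf1 and 0.04 for Scap, so that the sign turned for Srebf1 and Scap.

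Insig1, itself a known SREBP target that feeds back on SCAP, differed from its paralog. It had 1849 counts (74.3 CPM) in KO and 1281 (47.8 CPM) in WT, 1.56-fold higher (1.45 to 1.67). Insig2, which is regulated differently, had 944 in KO and 893 in WT (1.14-fold, 1.04 to 1.25). Insig1 took 66.2% (64.4 to 68.0, exact interval) of the reads of the pair in KO and 58.9% (56.8 to 61.0) in WT, a share that does not depend on the library total. Srebf1 took 41.3% (40.2 to 42.4) of the Srebf1 and Srebf2 reads in KO and 42.3% (41.3 to 43.2) in WT, with overlapping intervals. The sterol carrier gene Stard4 had 395 counts in KO and 356 in WT (1.196-fold, 1.03 to 1.38). Within the 6 regulators and carriers, Insig1 was the one gene past 1.5-fold (16.7%), near the 13.3% of all genes.

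The fatty acid branch lay above its WT values, apart from Elovl6 after the GC and length correction (-0.25). All 6 genes (100%) had an uncorrected log2 ratio above 0, against 55.0% of all genes. The 6 ratios had a median of 0.45 and a range of 0.08 to 0.97. Counting intervals lay wholly above 1 for 5 of the 6 (83.3%), against 40.3% of all genes. Scd1, a stearoyl-CoA desaturase that makes oleate, had 9853 counts (396 CPM) in KO and 5423 (202 CPM) in WT, 1.96-fold higher (1.89 to 2.02). With a log2 ratio of 0.97 it lay just outside the threshold, and Hsd17b7 at 1.16 just inside. Its neighbour and paralog Scd2, the main form in brain, had 13045 counts (524 CPM) in KO and 10158 (379 CPM) in WT, 1.38-fold higher (1.35 to 1.42). Scd1 took 43.0% (42.4 to 43.7) of the reads of this pair in KO and 34.8% (34.1 to 35.6) in WT. The transcripts share 3.03% of the Scd1 windows.

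Of the enzymes before desaturation, Acly and Acaca had the higher values. Acly, which releases acetyl-CoA from citrate, had 8192 counts (329 CPM) in KO and 6509 (243 CPM) in WT, 1.36-fold higher (1.31 to 1.40). Acaca, the carboxylase of the committed step, had 1046 in KO and 713 in WT, 1.58-fold higher (1.44 to 1.74). Of the Acaca windows, 52.6% also occur in the pseudogene Gm5182, which had 154 counts in KO and 174 in WT, and with it added the fold was 1.46 (1.34 to 1.59). Fasn, the synthase itself, had 6284 counts (253 CPM) in KO and 6181 (231 CPM) in WT, a fold of only 1.10 (1.06 to 1.13). Elovl6, which lengthens palmitate, had 418 in KO and 425 in WT (1.06-fold, 0.924 to 1.22), an interval that holds 1. By CPM, Fasn and Elovl6 thus lay near the median of all genes. After the GC and length correction Fasn had a log2 ratio of 0.34, above the 0.28 of Scd2, and Elovl6 had -0.25.

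**Figure D2:**
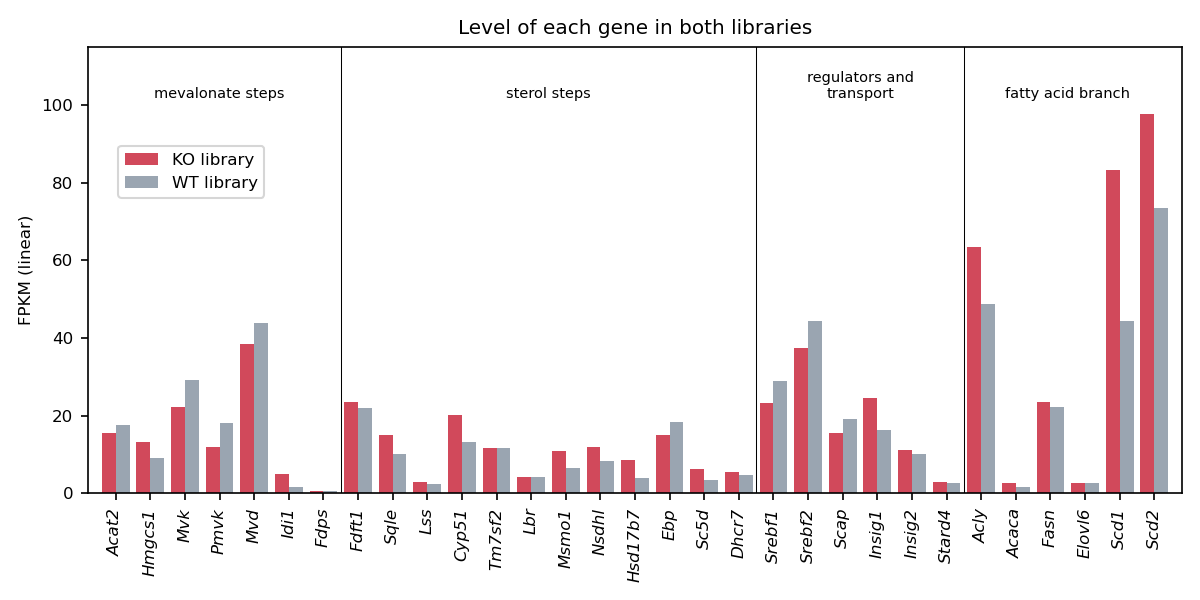
Level of each gene as the authors' FPKM, a value per gene length on a linear axis starting at 0, with the KO library left of the WT library for each gene. Scd2, Scd1 and Acly are the tallest in KO (97.8, 83.3 and 63.5 FPKM), and Fdps is the lowest in both libraries.

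Per length, the desaturase gene Scd2 had the highest level of the set in both libraries. In the KO library the order began with Scd2 at 97.8, Scd1 at 83.3 and Acly at 63.5 FPKM, and in the WT library with Scd2 at 73.5, Acly at 48.7, Srebf2 at 44.5 and Scd1 at 44.2 FPKM. Scd1 thus held rank 2 in KO and rank 4 in WT. The ratio of Scd2 to Scd1 was 1.17 in KO and 1.66 in WT. The most abundant sterol enzyme in both libraries was Mvd. The median level of the 31 genes was 13.2 FPKM in KO and 11.8 FPKM in WT, and Idi1 held rank 25 of 31 in KO and 30 in WT. The 31 genes together took 0.297% of all counts in KO and 0.240% in WT.

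The size of the difference between the branches depended on the desaturases and on the GC and length correction. The median log2 ratio was 0.25 over the 25 sterol branch genes and 0.45 over the 6 fatty acid genes, a difference of -0.20. For the 19 sterol enzymes alone the median was 0.27 and the difference -0.18. Without Scd1 and Scd2 the fatty acid median was 0.29 and the difference -0.04. After the correction the fatty acid median was 0.40 both with and without Scd1 and Scd2, and the difference from the sterol branch was -0.30. The fatty acid genes held 38838 counts in KO and 29409 in WT, 1.42-fold higher (1.40 to 1.44), and without Scd1 and Scd2 15940 in KO and 13828 in WT, 1.24-fold higher (1.21 to 1.27). The 19 sterol enzymes held 21342 in KO and 18939 in WT, 1.21-fold higher (1.19 to 1.24), an interval that overlaps the last. Of the reads of both branches' enzymes, the sterol enzymes took 35.5% (35.1 to 35.8) in KO and 39.2% (38.7 to 39.6) in WT. The sterol branch also spread more widely, with log2 ratios of -0.53 to 1.61 and 8 of 25 below 0, against 0 of 6 in the fatty acid branch. The share above 0 was 68% in the sterol branch and 100% in the fatty acid branch, against 55.0% of all genes.

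The log2 ratio followed the base composition of the transcripts, in these genes as in all others. Across all 12371 genes past the minimum with an annotated transcript, it correlated with the GC content of the longest transcript with Pearson's r of -0.35 and Spearman's rho of -0.44. Across the 31 genes r was -0.73 and rho -0.72, and across the 25 sterol branch genes r was -0.80 and rho -0.81. These points share 2 libraries and are a description. The 8 genes with a value below that of the WT library had a median GC content of 57.4% (49.6 to 59.1), and the 23 others 47.1% (41.9 to 57.9). Idi1, the gene with the highest ratio, had the lowest GC content of the set at 41.9%, and Pmvk, the lowest ratio, had 57.0%. Fasn, at 57.9%, lay above the median of -0.20 for all genes of its GC bin, with a log2 ratio of 0.13.

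**Figure D3:**
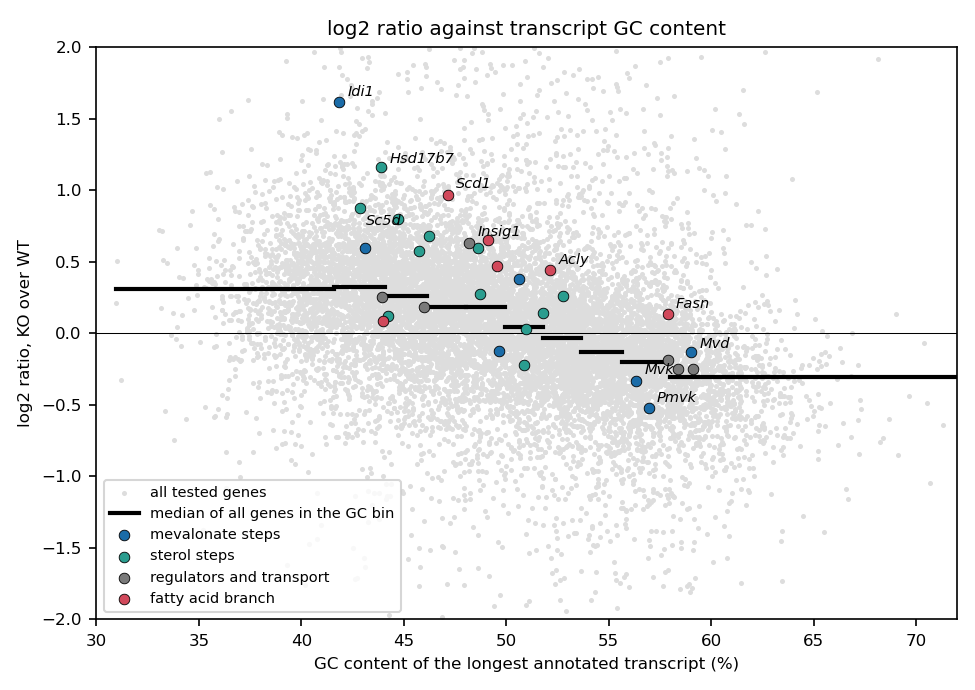
The log2 ratio of KO over WT against the GC content of the longest transcript, with all genes past the minimum in grey, short black lines for their median in each of 10 GC bins, and the 31 genes coloured by pathway group. Genes beyond a log2 ratio of 2 in either direction are not drawn. The bin medians run between 0.32 and -0.31, and most of the 31 genes follow this slope, with Idi1, Hsd17b7 and Scd1 above it.

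Once each gene was set against others of similar GC content and then of similar transcript length, both branch medians fell but stayed above 0. The sterol branch median became 0.10 and the fatty acid median 0.40, a difference of -0.30, against -0.20 without the correction. Over all genes the correction removed the relation to GC content (Pearson's r of 0.004), but not within this set. There r was still -0.36 across the 31 genes and -0.49 across the 25 sterol branch genes. The corrected values of these genes are thus not free of a relation to GC content. The mevalonate steps had a corrected median of 0.20, the sterol steps 0.32, and the regulators and carriers 0.01. Idi1 kept a value of 1.27, Hsd17b7 0.80 and Scd1 0.75, while Msmo1 had 0.52 and Sc5d 0.51, against 0.79 and 0.87 without the correction. At 2-fold 1 of 31 genes, Idi1, was then higher in KO, where 3.59% of all genes were. At 1.5-fold 3 of 31 genes (9.68%) were then higher in KO, a share near the 8.61% of all genes, and 0 were lower, against 8.81%. The sign turned for 8 of the 31 genes: Mvd, Srebf1 and Scap came to lie above 0, and Tm7sf2, Lbr, Insig2, Stard4 and Elovl6 below. Pmvk (-0.28), Acat2 (-0.29), Ebp (-0.24), Mvk (-0.11) and Srebf2 (-0.02) stayed below 0.

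**Figure D4:**
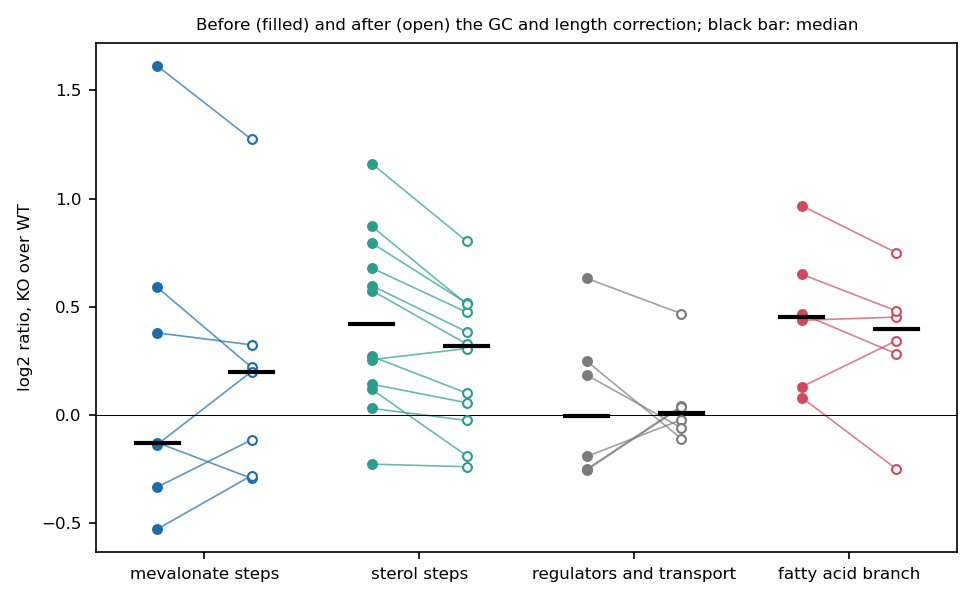
The log2 ratio of each gene before (filled) and after (open) subtraction of the median of genes of like GC content and transcript length, by pathway group, with black bars for group medians. The median of the mevalonate steps moves up to 0.20, those of the sterol steps and the fatty acid branch move down to 0.32 and 0.40, and Idi1 remains the highest point at 1.27.

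Genes around the routes gave a mixed picture. Of 9 symbols for processing and turnover of the SREBP machinery 8 were found and past the minimum. Of these, 0 were past 2-fold, where 4.47% of all genes were higher and 2.82% lower. The log2 ratios of the 8 ran from 0.04 to 0.48 with a median of 0.18, which was -0.06 after the GC and length correction. The most abundant were Pgrmc1, a haem-binding membrane protein, at 95.3 FPKM in KO and 82.1 FPKM in WT, and Mbtps1, at 22.2 FPKM in KO and 22.4 FPKM in WT. The log2 ratio of Pgrmc1 was 0.27, and 0.04 after that correction. The proteases that cut SREBPs, Mbtps1 and Mbtps2, had folds of 1.03 (0.991 to 1.07) and 1.05 (0.923 to 1.196), both holding 1.

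Sterol handling outside synthesis did not lean one way in sign, with 8 of 17 genes (47.1%) above 0, against 55.0% of all genes. At 1.5-fold 4 of 17 (23.5%) were higher in KO, against 13.3% of all genes, and 0 were lower, against 8.88%. After the GC and length correction 2 of 17 (11.8%) were 1.5-fold higher, against 8.61%, and 0 were lower, against 8.81%. Of 17 genes, 1 (5.88%) was higher by 2-fold, near the 4.47% of all genes, 0 were lower, against 2.82%, and the median log2 ratio was -0.01. The one was Abcg1, a cholesterol exporter abundant in macrophages, with 313 counts in KO and 117 in WT, 2.88-fold higher (2.32 to 3.60). The macrophage markers given above were higher in the same library, and their part in this value was not tested. Ch25h, with 232 counts in KO and 121 in WT, had a plain fold of 2.07 (1.65 to 2.60). Its log2 ratio of 0.97 lay just under the threshold. Npc2, which carries cholesterol out of lysosomes, had 445 FPKM in KO and 467 FPKM in WT, and the lipoprotein receptor gene Lrp1 129 FPKM in KO and 147 FPKM in WT. The log2 ratio of Npc2 was -0.01, and -0.07 after the GC and length correction. That of Lrp1 was -0.14, and turned to 0.08 after it. The sterol sensors LXR-beta and LXR-alpha, encoded by Nr1h2 and Nr1h3, had log2 ratios of -0.35 and -0.27, which were -0.03 and -0.05 after the GC and length correction. The counting interval of the fold for Nr1h3 holds 1 (0.663 to 1.02).

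Further fatty acid genes held 1 member past 2-fold in each direction among 18 past the minimum of 24 listed, with a median log2 ratio of 0.22. Each is 5.56% of the 18, where 4.47% of all genes were higher and 2.82% lower, so these 2-fold counts are near the background. A log2 ratio above 0 was found for 14 of 18 (77.8%), against 55.0% of all genes, and 4 lay below, Tecr and Slc25a1 among them. At 1.5-fold 4 of 18 (22.2%) were higher, against 13.3% of all genes, and 1 was lower, against 8.88%. After the GC and length correction 14 of 18 lay above 0. At 1.5-fold 3 (16.7%) were then higher, against 8.61%, and 1 was lower, against 8.81%. Elovl7, an elongase, had 84 counts in KO and 38 in WT, 2.38-fold higher (1.61 to 3.59). Acacb, the mitochondrial counterpart of Acaca that restrains fatty acid oxidation, had 62 in KO and 158 in WT, a fold of 0.423 (0.310 to 0.571). After the GC and length correction neither was past 2-fold, at log2 ratios of 0.67 for Elovl7 and -0.88 for Acacb. Tecr, the last reductase of elongation, had 116 FPKM in KO and 147 FPKM in WT, and the citrate carrier Slc25a1 94.5 FPKM in KO and 109 FPKM in WT. The log2 ratio of Tecr was -0.29, and -0.06 after the correction. That of Slc25a1 was -0.15, and turned to 0.19 after it. Scd3 had 0 counts in both libraries and Scd4 1 in KO and 7 in WT, so nearly all desaturase reads came from Scd1 and Scd2.

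The non-sterol isoprenoid genes that draw on farnesyl diphosphate were split. Of 12 listed, 11 passed the minimum, and 0 were past 2-fold, where 4.47% of all genes were higher and 2.82% lower. At 1.5-fold 2 of the 11 (18.2%) were higher, against 13.3% of all genes, and 1 was lower, against 8.88%. After the GC and length correction 0 were 1.5-fold higher, against 8.61%, and 1 was lower, against 8.81%. Of the 11, 6 (54.5%) lay above 0, against 55.0% of all genes, and 5 below. The median log2 ratio of the 11 was 0.09. This median lies near the 0.06 of all genes. Fnta, the shared subunit of the prenyltransferases, had 28.9 FPKM in KO and 28.2 FPKM in WT, and the dolichol kinase gene Dolk 20.1 FPKM in KO and 22.8 FPKM in WT. After the GC and length correction the sign turned for both. Fnta went from a log2 ratio of 0.09 to -0.07, and Dolk from -0.12 to 0.02.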

How the data were processed

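For either library the authors deposited a table that lists each gene's count and FPKM, per the file headers. The deposited counts hold only whole numbers and were taken without change. HISAT2 and the build mm10, also named GRCm38, appear in the submitters' processing notes. Which counter, annotation and strand setting were used, and how FPKM was scaled, is not given in the sources used here. Libraries were made with NEBNext Ultra RNA after Ribo-Zero, per the labels' protocols, a kit that does not mark strand.

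GENCODE M21 gave positions, transcripts and 3' UTRs, and matched 52403 of the 52636 gene identifiers. A further 4 genes, whose count per FPKM was not the same in both tables within 1%, entered the totals only. CPM, log2 ratios (0.5 CPM added), the minimum of 50 counts and exact (Clopper-Pearson) 95% intervals are as given in the results. A count of 0 allows up to 3 counts, or 0.121 CPM in KO and 0.112 CPM in WT. PCR copies were not marked by molecular identifiers, so reads are not independent and intervals and floors cover counting error only. The GC and length correction used 10 bins of each. Shared sequence was counted as 50-base windows of the longest transcript, on either strand.

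The 31 genes, the other lists and the alternatives were chosen with earlier results of these data known. Named genes were all 31, and, of each further list on lipid genes, those past 2-fold and the 2 with the highest FPKM summed over both libraries. Mbtps2, Ch25h, Nr1h2, Nr1h3, Scd3, Scd4 and genes that overlap or share sequence with the 31 were added after their values were seen. The procedure was tested on simulated data. TMM factors came from edgeR 4.0.16 under R 4.3.3, which was used for nothing else. All other steps ran in Python 3.11.15 with scipy 1.17.1, pandas 2.3.3 and numpy 2.4.6, and plots were drawn with matplotlib 3.10.9. Branches were compared by medians and summed counts without a test, and the alternatives tried are given at the end. Protein sequences were not used here. A gene planned for the list on SREBP processing is not reported here, and that list was summarised without it.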

Additional observations from a re-analysis of the deposited data

How the results depend on the processing

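The branch medians, their difference and the counts past 2-fold were recomputed under scaling by TMM, by median-of-ratios factors or by a total that omits the 20 most counted genes with the mitochondrial and rRNA genes, with 0.1 or 2 CPM added, a minimum of 200 counts (30 of the 31 genes) or none, the authors' FPKM, the GC and length correction, and other memberships. The sterol median ran between 0.10 and 0.27 and the difference of medians between -0.30 and -0.04, below 0 in every one. The fatty acid median was 0.39 with median-of-ratios factors, 0.40 with the authors' FPKM, 0.40 after the GC and length correction and 0.29 without Scd1 and Scd2. The number of genes 2-fold higher was 2 in all other settings, 1 after the GC and length correction (Idi1), 10 at a threshold of 1.5-fold and 0 at 4-fold, and the number lower was 0 in all. Apart from that correction, the one sign to turn was that of Tm7sf2, to -0.03 with median-of-ratios factors and -0.02 with the authors' FPKM. The cause was not tested. No paired analysis was possible because each group had 1 library. The depth of Fdps (69 counts in KO and 54 in WT) limits its value to an interval that holds 1.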
